A study of Arabidopsis thaliana with 12 samples.

Results

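The genes described here are the late enzymes of anthocyanin synthesis and the regulators that act on them in Arabidopsis thaliana seedlings. They are 10 of the 27655 genes in a deposited table of TPM (a read count scaled by gene length and library size, so that each library sums to 1000000), taken by locus identifier from a list of the pathway that was drawn up with earlier results of these data known. Of these, 5 are late enzymes: DFR (AT5G42800), LDOX (AT4G22880), UGT79B1 (AT5G54060), UGT75C1 (AT4G14090) and GSTF12 (AT5G17220). The other 5 are regulators: PAP1 (AT1G56650), PAP2 (AT1G66390), TT8 (AT4G09820), TTG1 (AT5G24520) and MYBL2 (AT1G71030).

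RNA sequencing covered 12 libraries of whole seedlings in 4 groups of 3: the mutant fve-4 at 27 °C, wild-type Columbia (Col) at 27 °C, fve-4 at 21 °C and Col at 21 °C. FVE encodes a WD40-repeat, histone-binding protein that works with histone deacetylases, and the design asks how its loss alters the response to warmth. All groups grew at 21 °C in short days, 8 h of light and 16 h of dark, for 7 days. The shift of the warm groups to 27 °C came at ZT1, 1 h after lights on, and harvest of every group was at ZT13, in the dark, 12 h later. The labels of these libraries name no mannitol, an agent used elsewhere in the study and not analysed here. They give 1 mutant allele and do not say whether replicates came from separate cultures, so p-values measure the spread between these libraries, which may be technical.

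Anthocyanins are the red to purple flavonoid pigments that seedlings store in vacuoles, mostly under bright light, cold, sugar or nutrient stress. The early enzymes, from chalcone synthase onward, make precursors that flavonols share, and the late enzymes turn those precursors into coloured, sugar-bearing anthocyanins. In Arabidopsis the late genes are switched on by a complex of an R2R3-MYB (PAP1, PAP2 and relatives), a bHLH protein (TT8, GL3 or EGL3) and the WD40 protein TTG1. MYBL2, a small MYB with a single repeat, binds the bHLH partner and represses the same genes.

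Depth, as reads recovered from the TPM values, was 11454833 to 14554413 per library. FVE itself averaged 6.82 ± 0.183 TPM in fve-4 and 40.2 ± 1.19 TPM in Col at 27 °C, and 5.15 ± 0.298 TPM in fve-4 and 51.6 ± 1.21 TPM in Col at 21 °C (SD, n = 3 each), lower in each fve-4 library than in any Col library. Some libraries stood apart on the principal components of all tested genes: replicate 1 of fve-4 at 27 °C on the first (6.9, against 20.1 and 19.5 for its group), replicate 3 of Col at 27 °C on the second (28.3, against 12.4 and 13.3), and replicate 1 of fve-4 at 21 °C on the third (-27.4, against -21.1 and -15.0). Results are given with and without them where they matter. In RNA from whole seedlings, fewer cells of a type and less RNA per cell cannot be told apart.

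The expression of all 5 late enzymes fell at 27 °C in both genotypes. Each fell less far in fve-4, and for 4 of them, all but UGT75C1, that difference passed the test given below. Their summed level was 39.9, 23.9 and 25.4 TPM in fve-4 at 27 °C, against 3.13, 4.29 and 3.52 TPM in Col at 27 °C. At 21 °C the sums were 179, 187 and 208 TPM in fve-4 and 161, 164 and 174 TPM in Col. The 4 groups did not overlap in this sum, whose mean was 29.7 TPM in fve-4 and 3.65 TPM in Col at 27 °C, and 191 TPM in fve-4 and 166 TPM in Col at 21 °C.

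**Figure D1:**
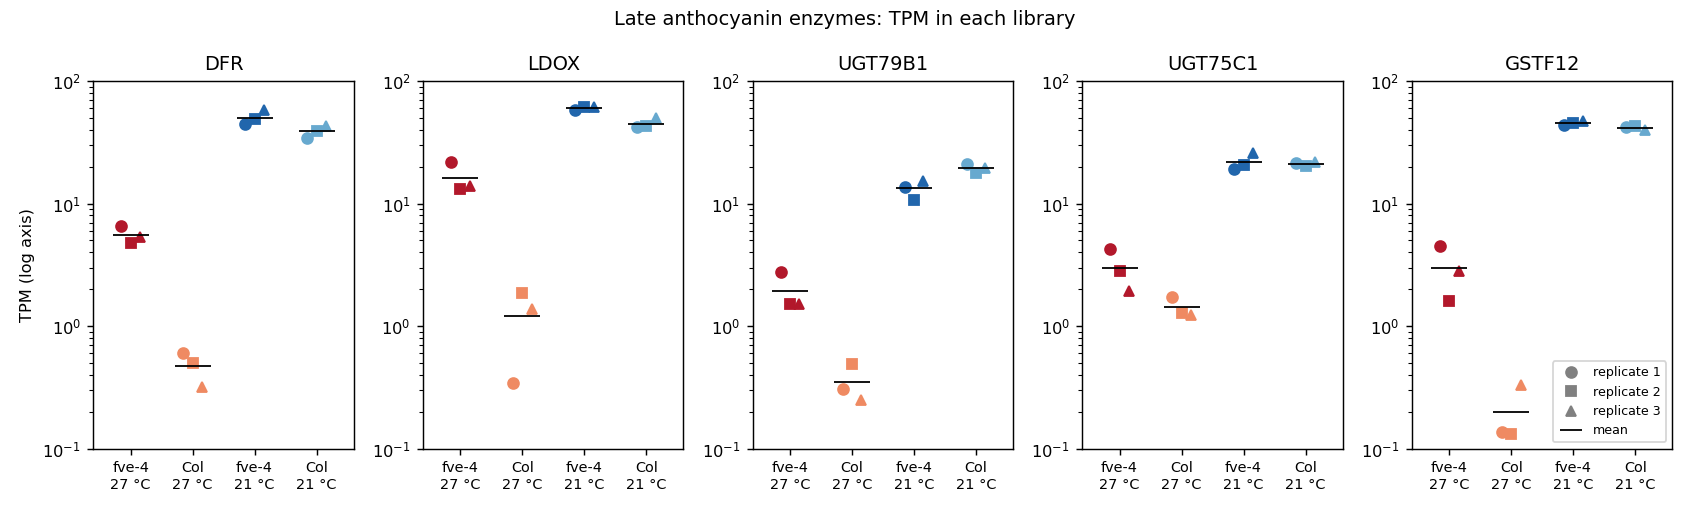
TPM (log axis) of the 5 late enzymes in each of the 12 libraries. Points are libraries and bars are group means. Every 27 °C library lies below every 21 °C library for each enzyme, and at 27 °C each fve-4 library lies above each Col library (DFR means 5.54 TPM in fve-4 and 0.477 TPM in Col). Over all tested genes such separation was not counted. Of them, 39.2% were called with warmth in fve-4, 61.9% in Col and 38.5% between the genotypes at 27 °C.

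DFR (chr5:17164093-17166032, minus strand, 6 exons, TAIR10.1) reduces dihydroflavonols to leucoanthocyanidins, the first step that flavonol synthesis does not share. It stood at 6.51, 4.78 and 5.32 TPM in fve-4 at 27 °C, against 0.609, 0.505 and 0.317 TPM in Col at 27 °C. At 21 °C it stood at 44.2, 48.9 and 57.7 TPM in fve-4, against 34.5, 39.3 and 43.2 TPM in Col. Warm fve-4 libraries were thus low beside both 21 °C groups and high beside warm Col, and no pair of groups overlapped. The mean TPM at 27 °C was 9.08-fold lower than at 21 °C in fve-4 and 81.7-fold lower in Col. On the log2(TPM + 1) scale used for all tests, which understates changes of low genes, DFR changed by -2.97 ± 0.13 in fve-4 and by -4.76 ± 0.13 in Col (change ± SE; adjusted p = 6.61e-09 and 2.91e-11). The adjusted p comes from limma with Benjamini-Hochberg adjustment over 19863 genes, and 0.05 is the threshold. The difference of these responses, the interaction, was 1.79 ± 0.18 (adjusted p = 2.16e-05), a smaller fall in fve-4. At 27 °C the difference of fve-4 from Col was 2.14 ± 0.13 (adjusted p = 2.53e-07). With a pseudocount of 0.1 in place of 1, the interaction was 2.95 and the warm difference 3.31.

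LDOX (chr4:12004726-12006209, minus strand) oxidises leucoanthocyanidins to the coloured anthocyanidins. It stood at 21.8, 13.2 and 13.8 TPM in fve-4 at 27 °C, against 0.341, 1.87 and 1.38 TPM in Col at 27 °C. At 21 °C it stood at 58.4, 61.2 and 61.2 TPM in fve-4, against 42.0, 43.3 and 49.6 TPM in Col. It kept the highest level of the 5 enzymes in warm fve-4, and again no pair of groups overlapped. The change with warmth was -1.86 ± 0.23 in fve-4 and -4.45 ± 0.23 in Col (adjusted p = 2.82e-05 and 2.50e-09), with an interaction of 2.59 ± 0.32 (adjusted p = 7.90e-05). This interaction was the largest among the members. Warm LDOX was higher in fve-4 than in Col by 3.01 ± 0.23 (adjusted p = 1.59e-06), or 13.6-fold in mean TPM.

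UGT79B1 (chr5:21936746-21938396, minus strand, 1 exon) adds xylose to the sugar of anthocyanidin glucosides. It stood at 2.75, 1.51 and 1.51 TPM in fve-4 at 27 °C, against 0.307, 0.495 and 0.248 TPM in Col at 27 °C. At 21 °C it stood at 13.6, 10.8 and 15.4 TPM in fve-4, against 21.2, 17.7 and 19.7 TPM in Col. The order of the genotypes thus differed by temperature, fve-4 being above Col at 27 °C and below it at 21 °C without overlap in either. The difference of fve-4 from Col was 1.09 ± 0.17 at 27 °C (adjusted p = 3.12e-04). At 21 °C it was -0.53 ± 0.17 (adjusted p = 0.0376), with an interaction of 1.62 ± 0.24 (adjusted p = 2.66e-04). With a pseudocount of 0.1 the interaction was 2.71 and the warm difference 2.15. The call at 21 °C was lost when any of 5 libraries was left out, among them replicate 1 of fve-4 at 21 °C (adjusted p = 0.0783).

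UGT75C1 (chr4:8122188-8123835, minus strand, 1 exon) adds a glucose to anthocyanins. It stood at 4.23, 2.82 and 1.92 TPM in fve-4 at 27 °C, against 1.74, 1.29 and 1.24 TPM in Col at 27 °C. At 21 °C it stood at 19.0, 20.7 and 25.7 TPM in fve-4, against 21.5, 20.4 and 21.7 TPM in Col, and these groups overlapped. It had the smallest warm gap between genotypes among the 5 enzymes, a ratio of summed reads of 2.15 (exact 95% interval 1.47 to 3.21; such intervals cover counting error only). The responses of -2.55 ± 0.18 in fve-4 and -3.20 ± 0.18 in Col differed by 0.65 ± 0.25, which did not pass the threshold (adjusted p = 0.0637). The call of fve-4 against Col at 27 °C (0.68 ± 0.18, adjusted p = 0.00876) was lost under quantile normalization (0.41, adjusted p = 0.0752) and with limma-voom, where the difference was larger (0.95, adjusted p = 0.0536).

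GSTF12 (chr5:5658416-5659661, plus strand, 3 exons), a glutathione S-transferase also known as TT19, is needed to deliver anthocyanins to the vacuole. It stood at 4.55, 1.60 and 2.81 TPM in fve-4 at 27 °C, against 0.136, 0.131 and 0.329 TPM in Col at 27 °C. At 21 °C it stood at 43.5, 45.4 and 47.5 TPM in fve-4, against 42.1, 43.0 and 39.9 TPM in Col. Behind the warm values stood 35, 12 and 21 reads in fve-4, against 1, 1 and 2 reads in Col, close to the limit of detection. From the summed reads, GSTF12 at 27 °C was 0.0650 of its 21 °C level in fve-4 (exact 95% interval 0.0501 to 0.0831). In Col the same fraction was 0.00437 (0.00119 to 0.0112). The change with warmth was -3.61 ± 0.20 in fve-4 and -5.16 ± 0.20 in Col, with an interaction of 1.55 ± 0.28 (adjusted p = 9.75e-04). Warm GSTF12 was higher in fve-4 by 1.67 ± 0.20 (adjusted p = 3.54e-05). With a pseudocount of 0.1 the interaction was 3.19 and the warm difference 3.31.

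GSTF12 overlaps PSY (AT5G17230) on the opposite strand by 108 bases, and UGT75C1 overlaps AT4G14100 and a long non-coding RNA on the opposite strand by 447 bases in sum. Whether reads were counted by strand is not given in the sources used here, so reads from these stretches cannot be assigned. PSY averaged 134 TPM in fve-4 and 133 TPM in Col at 27 °C, and 162 TPM in fve-4 and 170 TPM in Col at 21 °C. AT4G14100 averaged 29.5 and 27.8 TPM in fve-4 and Col at 27 °C, and 25.9 and 25.5 TPM at 21 °C. On the log2(TPM + 1) scale fve-4 differed from Col at 27 °C by 0.01 for PSY and 0.09 for AT4G14100.

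The sequences upstream of the late enzymes are shown because these genes fell together at 27 °C. Each is the 250 bases before the annotated gene start, read 5′ to 3′ on the strand of the gene from the RefSeq genome TAIR10.1. Capitals mark matches, on either strand, to the G-box CACGTG and the wider E-box CANNTG, which bHLH proteins can bind, and to ACCNANC, an AC-rich element of the kind R2R3-MYB proteins bind. DFR lies at chr5:17166033-17166282, LDOX at chr4:12006210-12006459 and UGT79B1 at chr5:21938397-21938646, all on the minus strand, and the bHLH gene TT8 at chr4:6181631-6181880 on the plus strand. The windows of GSTF12, UGT75C1 and MYBL2 run into neighbouring annotated genes and are not shown.
DFR: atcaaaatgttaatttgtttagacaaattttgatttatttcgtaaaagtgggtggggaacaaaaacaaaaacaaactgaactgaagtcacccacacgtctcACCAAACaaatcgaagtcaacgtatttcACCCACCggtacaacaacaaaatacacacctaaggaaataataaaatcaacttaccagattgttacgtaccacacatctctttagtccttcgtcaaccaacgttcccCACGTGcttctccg
LDOX: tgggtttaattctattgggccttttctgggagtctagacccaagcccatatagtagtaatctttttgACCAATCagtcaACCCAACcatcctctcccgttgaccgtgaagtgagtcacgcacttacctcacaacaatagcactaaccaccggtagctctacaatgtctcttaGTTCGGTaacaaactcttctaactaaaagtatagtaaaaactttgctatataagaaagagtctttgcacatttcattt
UGT79B1: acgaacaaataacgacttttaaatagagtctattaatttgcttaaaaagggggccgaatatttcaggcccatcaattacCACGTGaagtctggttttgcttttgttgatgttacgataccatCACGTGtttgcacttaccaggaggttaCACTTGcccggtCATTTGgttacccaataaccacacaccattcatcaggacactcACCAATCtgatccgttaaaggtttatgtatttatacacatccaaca
TT8: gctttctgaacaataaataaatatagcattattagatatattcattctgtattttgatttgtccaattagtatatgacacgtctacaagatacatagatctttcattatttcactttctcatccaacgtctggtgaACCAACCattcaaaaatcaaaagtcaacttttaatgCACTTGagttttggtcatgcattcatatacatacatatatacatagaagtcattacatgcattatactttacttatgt

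An AC-like element was present in the windows of all 5 late enzymes, and in 9 of the 10 members, TTG1 being the exception. GSTF12, UGT75C1 and MYBL2 are counted here, although their windows run into neighbouring genes. The only such element of UGT75C1 lay at -243 to -237, near the far end of its window. Of 27444 windows of the same length across the genome, 27.8% held one. DFR had 2 such elements, at -149 to -143 and -121 to -115 from the gene start, and LDOX had 3. The G-box was found in DFR, UGT79B1 and PAP2, and in 6.5% of all windows. UGT79B1 held 2 G-boxes and 2 further E-boxes, and a G-box always counts as an E-box too. LDOX, UGT75C1, PAP1 and MYBL2 held no E-box of any kind, against 55.3% of all windows that held one. A match describes letters in the window and does not show that a protein binds there.

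**Figure D2:**
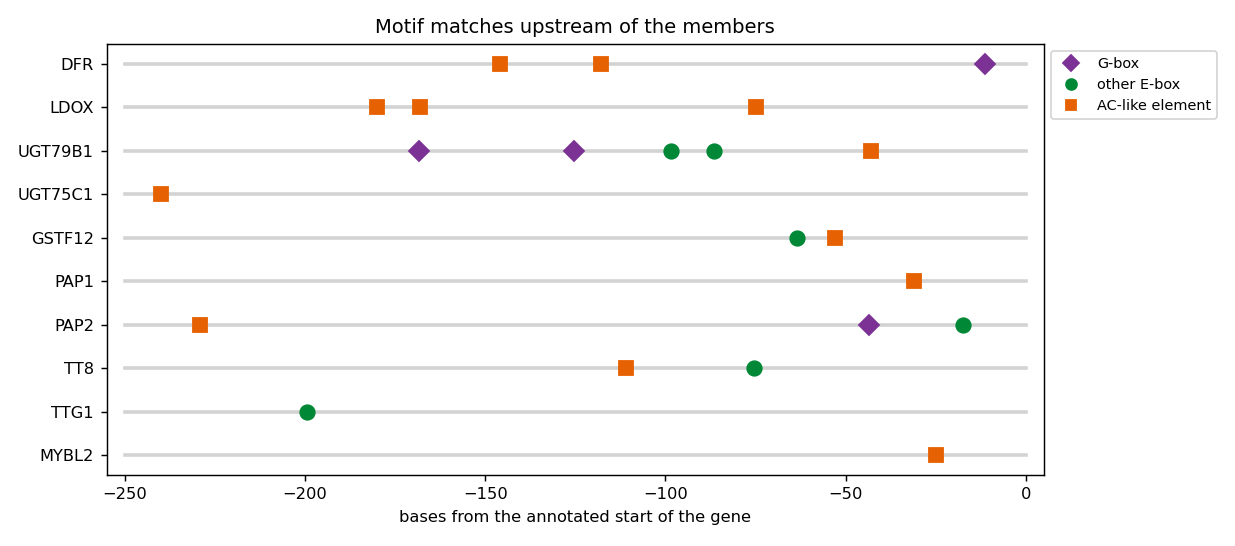
Positions of motif matches in the 250 bases before the annotated start of each of the 10 members (x axis: bases from the start, on the gene's own strand). Diamonds are G-boxes, circles other E-boxes and squares AC-like elements, and the squares appear in 9 of the 10 rows.

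Of the activating complex, PAP1 and TT8 fell too, both at lower levels than any late enzyme at 21 °C. PAP1 (chr1:21233555-21235292, minus strand, 3 exons), the MYB that can turn on the whole late pathway when overexpressed, stood at 1.03, 0.477 and 0.766 TPM in fve-4 at 27 °C, against 0.389, 0.0940 and 0 TPM in Col at 27 °C. At 21 °C it stood at 1.84, 3.80 and 3.82 TPM in fve-4, against 2.89, 3.09 and 2.40 TPM in Col. The warm libraries were low in both genotypes, without overlap between temperatures, while the genotypes overlapped at 21 °C. The change with warmth was -1.21 ± 0.22 in fve-4 (adjusted p = 8.05e-04) and -1.72 ± 0.22 in Col (adjusted p = 1.54e-05), and the interaction of 0.51 ± 0.32 did not pass the threshold (adjusted p = 0.246). At 27 °C the difference of fve-4 from Col was 0.60 ± 0.22 (adjusted p = 0.0496), resting on 24 reads in fve-4 and 5 in Col. That call was lost when any of 9 libraries was left out, among them replicate 1 of fve-4 at 27 °C (0.49, adjusted p = 0.160) and replicate 3 of Col at 27 °C (0.50, adjusted p = 0.146).

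TT8 (chr4:6181881-6186523, plus strand, 7 exons) is the bHLH partner, and in Arabidopsis also a target of the complex. It stood at 0.838, 0.357 and 0.825 TPM in fve-4 at 27 °C, against 0.291, 0.0704 and 0.0882 TPM in Col at 27 °C. At 21 °C it stood at 2.27, 3.02 and 2.51 TPM in fve-4, against 2.48, 1.89 and 1.43 TPM in Col. TT8 was low in all warm libraries and, like PAP1, its genotypes were apart at 27 °C and overlapped at 21 °C. The change with warmth was -1.11 ± 0.19 in fve-4 (adjusted p = 4.62e-04) and -1.34 ± 0.19 in Col (adjusted p = 3.70e-05), with an interaction of 0.23 ± 0.27 (adjusted p = 0.565). The difference of fve-4 from Col at 27 °C was 0.53 ± 0.19 (adjusted p = 0.0429) and lost its call when any of 7 libraries was left out, among them replicate 1 of fve-4 at 27 °C (0.46, adjusted p = 0.134) and replicate 3 of Col at 27 °C (0.50, adjusted p = 0.105). For both activators the tested scale compresses low values. Limma-voom on the recovered reads gave PAP1 a change of -2.04 in fve-4 and -4.24 in Col, with an interaction of 2.20 (adjusted p = 0.0480). It gave TT8 a change of -2.08 in fve-4 and -3.80 in Col, with an interaction of 1.72 (adjusted p = 0.0444). The warm difference of fve-4 from Col was then 2.24 for PAP1 and 2.13 for TT8, and under quantile normalization it was 0.27 (adjusted p = 0.334) and 0.17 (adjusted p = 0.491).

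PAP2 (chr1:24763941-24765541, plus strand, 3 exons), a near copy of PAP1, was hardly detected. Its reads were 0, 0 and 1 in fve-4 and 2, 0 and 0 in Col at 27 °C, and 1, 2 and 1 in fve-4 and 1, 1 and 2 in Col at 21 °C. It failed the filter on low values and was not tested. Of its neighbours and relatives, MYB113 (AT1G66370) had reads in 1 library only, at 0.142 TPM in fve-4 at 27 °C, and MYB114 (AT1G66380) was listed at 0 in all 12. These MYB genes resemble each other, so reads that match more than one of them may have been split or dropped in counting.

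TTG1 (chr5:8370317-8372847, minus strand), the WD40 scaffold, moved the other way and little. It stood at 34.2, 35.3 and 34.4 TPM in fve-4 at 27 °C, against 35.2, 38.2 and 34.2 TPM in Col at 27 °C. At 21 °C it stood at 27.9, 28.7 and 25.7 TPM in fve-4, against 27.5, 23.5 and 26.6 TPM in Col. Warm libraries were higher in both genotypes, and the genotypes overlapped at both temperatures. TTG1 rose by 0.33 ± 0.07 in fve-4 and 0.46 ± 0.07 in Col (adjusted p = 0.00231 and 6.63e-05), with an interaction of -0.13 ± 0.10 (adjusted p = 0.339).

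MYBL2 (chr1:26795052-26796532, minus strand), the repressor, moved against the late enzymes with warmth and between the genotypes at 27 °C. It stood at 9.08, 12.5 and 11.9 TPM in fve-4 at 27 °C, against 18.6, 17.2 and 20.7 TPM in Col at 27 °C. At 21 °C it stood at 9.82, 7.69 and 6.79 TPM in fve-4, against 3.03, 4.62 and 4.49 TPM in Col. Warm Col was the highest group and Col at 21 °C the lowest, and the fve-4 libraries lay between them, overlapping between temperatures. The change with warmth in fve-4, 0.42 ± 0.16, was just under the threshold (adjusted p = 0.04999), and the call was lost in 18 of 23 alternative settings. In Col MYBL2 rose by 1.99 ± 0.16, a 4.66-fold higher mean TPM (adjusted p = 1.33e-07). The interaction was -1.57 ± 0.23 (adjusted p = 2.10e-04). Relative to Col, fve-4 was thus lower in the warmth (-0.71 ± 0.16, adjusted p = 0.00356), and higher at 21 °C (0.85 ± 0.16, adjusted p = 0.00200).

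**Figure D3:**
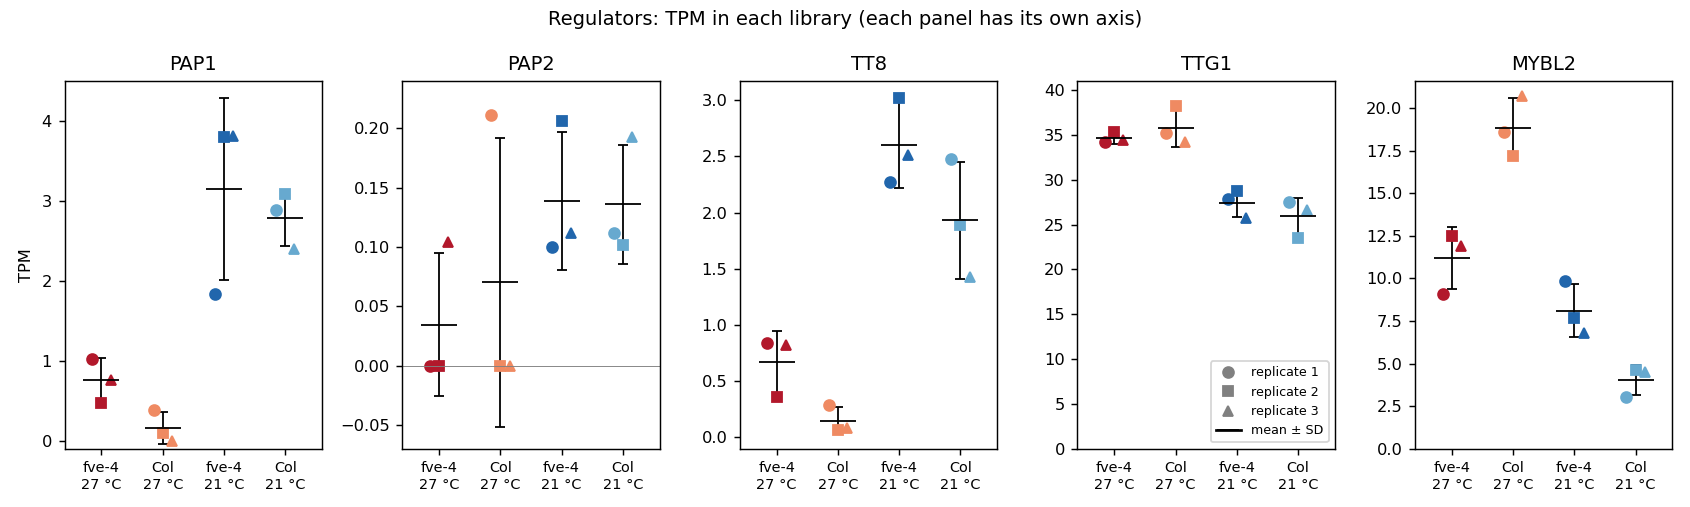
TPM of the 5 regulators in each library, each panel with its own axis. Points are libraries and bars are means ± SD (n = 3), which extend below 0 where reads are few. PAP1 and TT8 are low in all warm libraries, while MYBL2 is highest in warm Col (mean 18.8 TPM) and lowest in Col at 21 °C (4.04 TPM).

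Counted over the members, 9 of 10 passed the filter of at least 1 TPM in 3 libraries. DFR, UGT79B1, GSTF12, PAP1 and TT8 were under 1 TPM in all warm Col libraries and passed through other groups, and TT8 passed through the 21 °C libraries alone, so these counts are descriptions. With warmth in fve-4, all 9 tested were called, 7 lower and 2 higher, where 39.2% of all tested genes were called, 14.0% lower and 25.2% higher. With warmth in Col, 7 were called lower and 2 higher as well, where 61.9% of all tested genes were called, 25.1% lower and 36.7% higher. The median change was -1.86 in fve-4 and -3.20 in Col, against 0.07 and 0.08 for all tested genes. The interaction was called for 5, being positive for DFR, LDOX, UGT79B1 and GSTF12 and negative for MYBL2, where 32.4% of all tested genes were called, 14.4% positive and 18.0% negative. At 27 °C, 7 were higher and 1 lower in fve-4 than in Col, where 38.5% of tested genes were called, 20.9% higher and 17.6% lower. At 21 °C, MYBL2 was higher and UGT79B1 lower, where 23.8% of tested genes were called, 15.3% higher and 8.49% lower. The comparisons share libraries with each other.

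**Figure D4:**
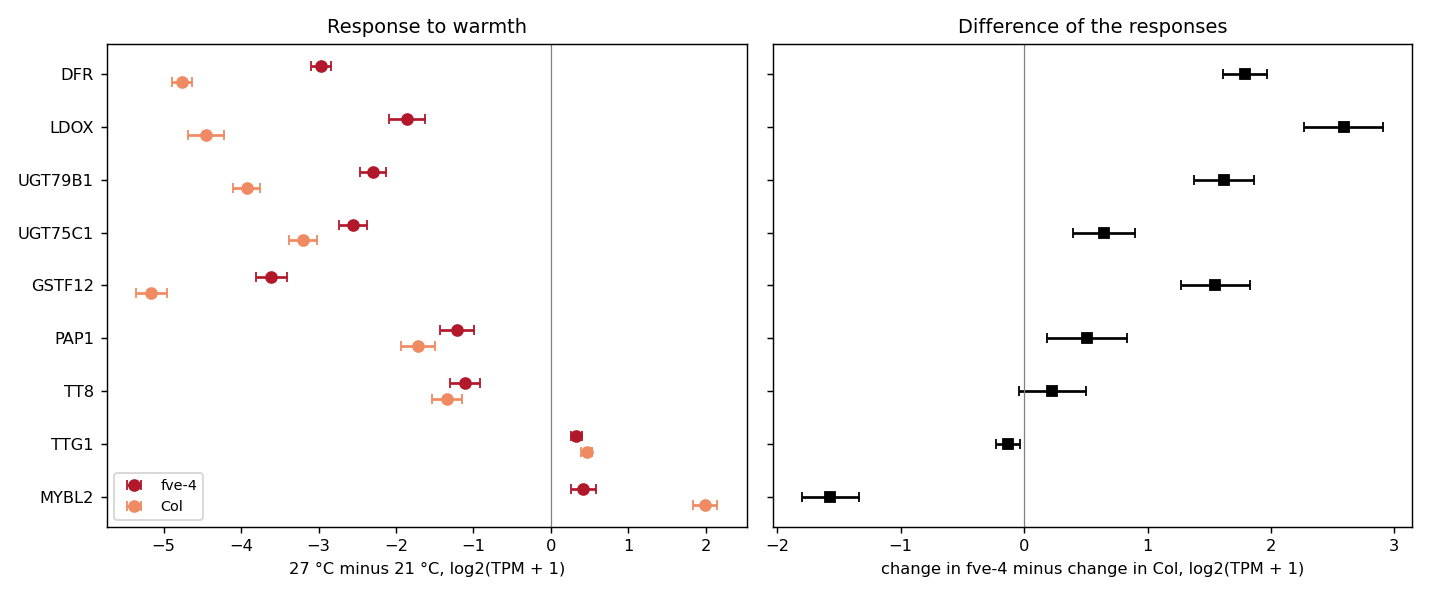
Left, change of each tested member at 27 °C against 21 °C in fve-4 and in Col (log2(TPM + 1), ± SE from limma). Right, the interaction, with positive values for a smaller fall in fve-4. LDOX has the largest positive difference (2.59) and MYBL2 the largest negative one (-1.57). On this scale, which compresses low values, TTG1 (-0.13) and TT8 (0.23) lie near 0.

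Other scalings changed the split of calls over all genes, though they moved the median of all genes by less than 0.1. Of the genes called with warmth, 64.2% were higher in fve-4 and 59.4% in Col, against 49.6% and 49.9% after median-ratio rescaling. At 21 °C, 64.3% of genes called between fve-4 and Col were higher in fve-4, against 47.4% after that rescaling. The directions of the members' called changes were the same in all these scalings.

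Without replicate 1 of fve-4 at 27 °C, which had the highest level of every late enzyme, of PAP1 and of TT8 in its group and the lowest MYBL2, the warm differences of fve-4 from Col remained past the threshold for all 5 enzymes. They were 2.04 for DFR, 2.79 for LDOX, 0.90 for UGT79B1, 0.47 for UGT75C1 (adjusted p = 0.0364) and 1.40 for GSTF12. The interactions without it were 1.68 for DFR, 2.37 for LDOX, 1.43 for UGT79B1, 1.27 for GSTF12 and -1.44 for MYBL2, all past the threshold. Without replicate 3 of Col at 27 °C they were 1.71, 2.69, 1.57, 1.62 and -1.50 in the same order, and without replicate 1 of fve-4 at 21 °C they were 1.70, 2.57, 1.65, 1.51 and -1.43. All of these passed too.

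Levels can be set side by side between genes when TPM is recomputed with exon lengths. On that scale, in fve-4 at 21 °C, DFR (47.5 ± 6.48 TPM) and LDOX (47.3 ± 1.28) were the highest, followed by GSTF12 (38.3 ± 1.71), TTG1 (27.4 ± 1.52), UGT75C1 (16.1 ± 2.58) and UGT79B1 (9.82 ± 1.73; SD, n = 3). DFR and LDOX did not differ beyond their spread. Among the other regulators of that group, MYBL2 (6.36 ± 1.22) and TT8 (4.46 ± 0.655) stood above PAP1 (3.66 ± 1.32) and PAP2 (0.165 ± 0.0688), and TT8 and PAP1 lay within their spread. In Col at 21 °C, DFR (36.8 ± 4.13), LDOX (35.3 ± 3.20) and GSTF12 (35.1 ± 1.31) were level within their spread, and MYBL2 (3.18 ± 0.695), PAP1 (3.24 ± 0.411) and TT8 (3.31 ± 0.893) were too. At 27 °C the order turned over. TTG1 led in both genotypes, at 34.5 ± 0.644 TPM in fve-4 and 35.9 ± 2.06 TPM in Col. Second came LDOX in warm fve-4 (12.8 ± 3.76, with MYBL2 at 8.78 ± 1.46) and MYBL2 in warm Col (14.9 ± 1.43). All 5 late enzymes in warm Col were at 1.06 TPM or less on this scale.

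The early enzymes, a separate list of 6 genes, fell with warmth in both genotypes and all had a positive interaction. Of all tested genes, 14.0% were lower in fve-4, 25.1% were lower in Col and 14.4% had a positive interaction. The medians of the 6 early enzymes were -1.02 in fve-4, -3.03 in Col and 1.79 for the interaction. CHS, the entry enzyme of the pathway, stood at 292, 192 and 192 TPM in fve-4 at 27 °C, against 33.1, 28.9 and 18.0 TPM in Col at 27 °C. At 21 °C it stood at 304, 343 and 396 TPM in fve-4, against 368, 376 and 386 TPM in Col. Warm fve-4 thus held 0.648 of its 21 °C mean of CHS and warm Col 0.0708, and the interaction was 3.17 ± 0.27 (adjusted p = 6.23e-06). F3H, which hydroxylates flavanones, averaged 19.4 TPM in fve-4 and 5.35 TPM in Col at 27 °C, with an interaction of 1.80 ± 0.29. FLS1, which draws precursors off into flavonols, averaged 24.1 TPM in fve-4 and 4.93 TPM in Col at 27 °C, with an interaction of 2.73 ± 0.34. CHI, which closes the ring of chalcones, averaged 18.9 TPM in fve-4 and 14.1 TPM in Col at 27 °C, a difference that did not pass the threshold (0.37 ± 0.15, adjusted p = 0.0582). F3'H, which adds a hydroxyl to the B ring, averaged 2.15 TPM in fve-4 and 1.96 TPM in Col at 27 °C (0.09 ± 0.20, adjusted p = 0.755).

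At 21 °C, of the 6 early enzymes 3 were lower in fve-4 than in Col and none was higher. Of all tested genes, 8.49% were lower there and 15.3% higher. Of the 5 late enzymes UGT79B1 alone was lower. CHI averaged 42.7 TPM in fve-4 and 57.8 TPM in Col (-0.44 ± 0.15, adjusted p = 0.0429), and F3'H 5.35 TPM in fve-4 and 9.93 TPM in Col (-0.79 ± 0.20, adjusted p = 0.0116). DFR and LDOX were above Col without overlap, by 0.36 ± 0.13 and 0.42 ± 0.23, neither past the threshold (adjusted p = 0.0625 and 0.211). Both passed when these groups were fitted alone (adjusted p = 0.0301 for DFR and 0.00205 for LDOX) and with limma-voom (0.0207 and 0.0146). Whether the lists differ from each other was not tested.

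**Figure D5:**
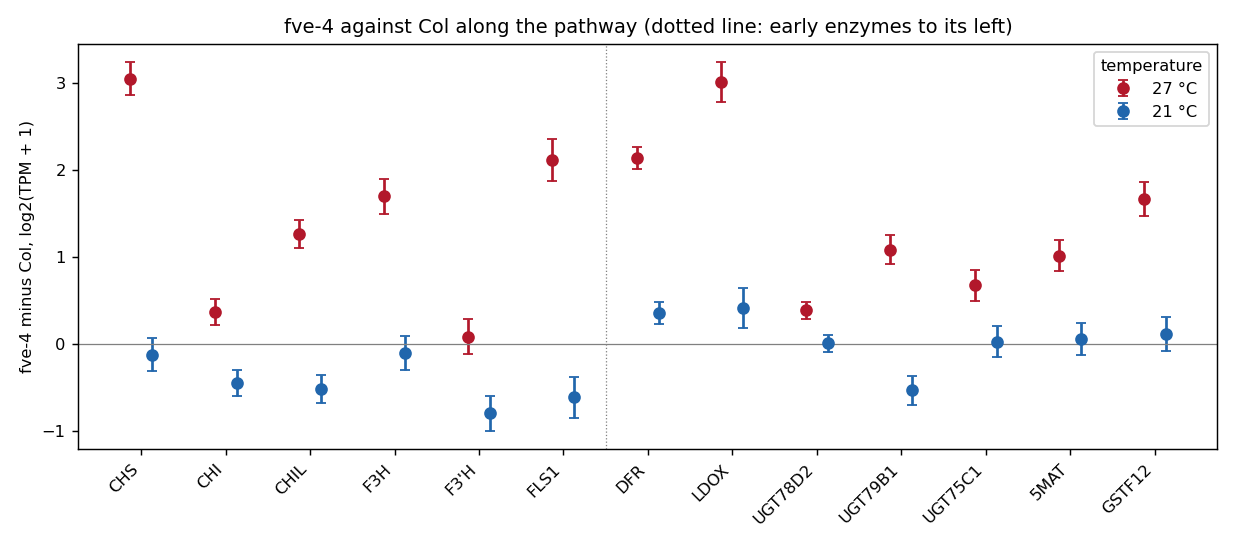
Difference of fve-4 from Col (log2(TPM + 1), ± SE from limma) at 27 °C and at 21 °C for early enzymes, late enzymes and the tailoring genes UGT78D2 and 5MAT. At 27 °C all lie above 0, from 0.09 for F3'H to 3.05 for CHS and 3.01 for LDOX, and at 21 °C they range from -0.79 to 0.42.

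Among 7 further genes of anthocyanin glucosylation and acylation, 5 were lower and 1 higher with warmth in each genotype. Of all tested genes, 14.0% were lower and 25.2% higher in fve-4, and 25.1% lower and 36.7% higher in Col. The interaction was positive for 2, where 14.4% of all tested genes were called positive. At 27 °C, 3 were higher and none lower in fve-4, where 20.9% and 17.6% of all tested genes were. At 21 °C, 1 was lower in fve-4, where 8.49% of all tested genes were. 5MAT, which adds malonate to anthocyanins, averaged 1.42 ± 0.329 TPM in fve-4 and 0.192 ± 0.194 TPM in Col at 27 °C, and 16.8 ± 3.52 TPM in fve-4 and 15.9 ± 2.72 TPM in Col at 21 °C. Its interaction was 0.96 (adjusted p = 0.0106). UGT78D2, which adds the first glucose, averaged 20.6 TPM in fve-4 and 15.5 TPM in Col at 27 °C and had an interaction of 0.38 (adjusted p = 0.054).

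Of 7 other MYB, bHLH and WRKY partners 4 passed the filter, and TT2 was at 0 in every library. With warmth 3 were lower in fve-4 and 4 in Col, where 14.0% and 25.1% of all tested genes were lower. The interaction was positive for 1, where 14.4% of all tested genes were called positive. Higher in fve-4 were 2 at 27 °C and 1 at 21 °C, where 20.9% and 15.3% of all tested genes were higher. The bHLH genes that can stand in for TT8 changed little between genotypes. GL3 averaged 1.02 TPM in fve-4 and 0.852 TPM in Col at 27 °C, and 1.98 TPM in both at 21 °C. EGL3 averaged 4.88 TPM in fve-4 and 4.78 TPM in Col at 27 °C, and 6.71 TPM in fve-4 and 6.70 TPM in Col at 21 °C.

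Of 8 other repressors of anthocyanin synthesis, 1 was higher and 2 lower with warmth in fve-4, where 39.2% of all tested genes were called, and 1 higher and 3 lower in Col, where 61.9% were. Their interaction was called positive for 1 and negative for none, where 14.4% and 18.0% of all tested genes were. In fve-4, 1 was higher and 1 lower at 27 °C, where 20.9% and 17.6% of all tested genes were. At 21 °C 1 was lower in fve-4, where 8.49% of all tested genes were. SPL9, which disrupts the MYB complex in older plants, averaged 4.86 TPM in fve-4 and 4.33 TPM in Col at 27 °C and passed in no comparison. Of 5 light and flavonol regulators 4 were tested. With warmth 1 was lower in fve-4 and 4 in Col, where 14.0% and 25.1% of all tested genes were. The interaction was positive for 2, where 14.4% of all tested genes were called positive. In fve-4, 3 were higher and 1 lower at 27 °C, where 20.9% and 17.6% of all tested genes were. At 21 °C 1 was lower, where 8.49% of all tested genes were. HY5, the bZIP factor of light responses that also acts on flavonoid genes, averaged 21.0 ± 1.57 TPM in fve-4 and 13.6 ± 2.45 TPM in Col at 27 °C, and 25.5 ± 1.08 TPM in fve-4 and 23.2 ± 1.56 TPM in Col at 21 °C. Its change with warmth was -0.27 in fve-4 (adjusted p = 0.0674) and -0.74 in Col (adjusted p = 4.61e-05), with an interaction of 0.47 (adjusted p = 0.0316).

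Likeness to the late enzymes was measured as the root mean square difference, over the 4 group means of log2(TPM + 1) centred on each gene's own mean, from the mean profile of the 5 enzymes. The 6 nearest other genes were GSTF6 (0.21), 5MAT (0.25), KIN1 (0.34), F3H (0.56), FLS1 (0.62) and bHLH38 (0.74), with a median of 1.88 over all tested genes. GSTF6, another glutathione S-transferase, averaged 11.5 ± 4.89 TPM in fve-4 and 2.86 ± 0.714 TPM in Col at 27 °C, and 88.4 ± 2.45 TPM in fve-4 and 55.7 ± 6.36 TPM in Col at 21 °C. KIN1, a cold-inducible gene, averaged 4.47 ± 2.83 TPM in fve-4 and 1.37 ± 0.807 TPM in Col at 27 °C, and 46.4 ± 9.76 TPM in fve-4 and 57.5 ± 0.0599 TPM in Col at 21 °C. Among the members the same measure was 0.26 for DFR, 0.36 for UGT79B1, 0.45 for GSTF12, 0.48 for UGT75C1 and 0.50 for LDOX, all of which helped set the profile. It was 1.08 for PAP1, 1.20 for TT8, 2.03 for TTG1 and 2.51 for MYBL2. The measure counts the size of each change, which log2(TPM + 1) holds down in genes as low as PAP1 and TT8.

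Markers of cell types were measured alongside. Of 7 seed coat markers, which share pathway steps, the defining BAN, TT2 and TT1 were at 0 in all libraries. AHA10, the only marker of this list to pass the filter, was detected in every library. It averaged 1.34 TPM in fve-4 and 0.988 TPM in Col at 27 °C, and 1.15 TPM in fve-4 and 0.779 TPM in Col at 21 °C. TT10 averaged 0.605 TPM in Col at 27 °C, its highest group mean. The summed level of the 7 was 1.54 to 1.86 TPM in fve-4 and 1.08 to 2.15 TPM in Col at 27 °C. At 21 °C it was 1.05 to 1.44 TPM in fve-4 and 0.883 to 1.31 TPM in Col. Of 14 root markers 12 were tested, and 8 were higher and 1 lower in fve-4 at 27 °C, where 20.9% of all tested genes were higher and 17.6% lower. Their sum was 2295 to 3032 TPM in fve-4 and 1865 to 2299 TPM in Col at 27 °C, and 2233 to 2363 TPM in fve-4 and 2797 to 2962 TPM in Col at 21 °C. Most of that sum is PYK10, which averaged 2119 TPM in fve-4 and 2687 TPM in Col at 21 °C (-0.34, adjusted p = 0.0198) and was the only root marker called there. With warmth none of the root markers was called in fve-4, where 39.2% of all tested genes were. In Col 1 was higher and 4 lower, where 36.7% and 25.1% of all tested genes were. The interaction of the root markers was positive for 2 and negative for 1, where 14.4% and 18.0% of all tested genes were.

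Of the 5 epidermis markers, 3 were higher with warmth in fve-4 and 4 in Col, where 25.2% and 36.7% of all tested genes were. Lower in fve-4 than in Col were 4 at 27 °C and 2 at 21 °C, where 17.6% and 8.49% of all tested genes were. The interaction of these markers was positive for 1, PDF1 (0.56, adjusted p = 0.00215), and negative for 2. Of all tested genes, 14.4% had a positive interaction and 18.0% a negative one. The epidermis markers summed to 865 to 963 TPM in fve-4 and 964 to 1041 TPM in Col at 27 °C, and 631 to 705 TPM in fve-4 and 841 to 874 TPM in Col at 21 °C. The 5 mesophyll markers summed to 27823 to 28536 TPM in fve-4 and 28771 to 32551 TPM in Col at 27 °C, and 34218 to 34837 TPM in fve-4 and 35158 to 36887 TPM in Col at 21 °C. With warmth 1 rose and 2 fell in fve-4, and 2 rose and 1 fell in Col. Of all tested genes, 25.2% rose and 14.0% fell in fve-4, and 36.7% rose and 25.1% fell in Col. Of the mesophyll markers 2 were lower in fve-4 than in Col at 27 °C, where 17.6% of all tested genes were. At 21 °C none was called, where 23.8% of all tested genes were. The interaction of the mesophyll markers was negative for 1 and positive for none, where 18.0% and 14.4% of all tested genes were. The part of root or mesophyll content in the results above was not tested.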

How the data were processed

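Gene expression was measured by RNA sequencing of 12 libraries of seedlings, 3 for each combination of genotype (fve-4, Col) and temperature. The deposited values are TPM per gene, as made by the authors. The submitters' processing notes name fastp 0.20.1, HISAT2 2.1.10, DESeq2 1.26.0 and TAIR10, and the counting tool and its strand setting are not given in the sources used here. Multiplied by gene span (RefSeq, TAIR10.1), the deposited TPM gave whole reads (within 0.01 of a read) for 99.98% of genes with a span, so TPM was scaled by gene span and not by exon length.

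Genes with at least 1 TPM in at least 3 libraries (19863) were tested on log2(TPM + 1) with limma 3.58.1 in R 4.3.3, with a variance trend, 4 group means and 8 residual degrees of freedom, in 5 comparisons. Tests were two-sided, with Benjamini-Hochberg adjustment over all tested genes in each comparison and a threshold of 0.05. The fit was also run on simulated data, in which only genes with many reads were changed, and by small factors. That run does not cover values as low as those of PAP1, TT8 or the late enzymes in warm Col. Intervals for ratios of summed reads are exact 95% binomial ones and cover counting error only. Promoter windows, exon lengths and positions come from TAIR10.1. Figures were drawn with matplotlib 3.10.9.

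Genes were named by rule: all 10 members, 13 fixed genes of the pathway lists, FVE, and the 6 genes most like the late enzymes. PSY and AT4G14100 are named for their position, and seed coat markers because they were at 0 or, for AHA10 and TT10, were the highest of that list. Members and lists were chosen with earlier results of these data known. Alternatives covered the pseudocount, the filter, scaling (median-ratio, quantile), exon lengths, the variance trend, limma-voom on recovered reads, 2-group fits, a replicate block and leaving out each library.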

Additional observations from a re-analysis of the deposited data

Results flagged for a closer look

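The genotypes differed in how 5 members responded to warmth, by a test of the difference itself (the interaction in limma, change in fve-4 minus change in Col, log2(TPM + 1)). The interaction was 1.79 for DFR, 2.59 for LDOX, 1.62 for UGT79B1 and 1.55 for GSTF12, each a smaller fall in fve-4. It was -1.57 for MYBL2, a smaller rise in fve-4. Of all tested genes, 32.4% were called for the interaction, 14.4% positive and 18.0% negative. Groups of 3 libraries are too small for a test of single outlying values.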

How the results depend on the processing

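Over 45 member changes, 944 of 1016 alternative values kept their direction and their side of the threshold, 51 lost the call, 13 gained one and 8 reversed sign, none of the last in a called change. Many alternatives could alter the adjusted p but not the change itself, so a kept direction there was fixed in advance. Examples are the filter, the variance trend and leaving out a library from outside the compared groups. The count of members called between fve-4 and Col at 27 °C was 8, and 5 under quantile normalization. Of all tested genes, 38.5% and 37.5% were called in those fits. At 21 °C the count was 2, and 1 with a pseudocount of 0.1 or 0.5 or no filter, and 4 with the contrast's groups alone or limma-voom. Of all tested genes, 23.8% were called at 21 °C in the main fit, and 19.1% to 25.2% in these alternatives. Leaving out 1 library gave 8 to 9 calls with warmth in fve-4, 9 to 9 in Col, 5 to 6 for the interaction, 6 to 8 at 27 °C and 1 to 3 at 21 °C. The shares of all tested genes called were then 31.8% to 40.7%, 56.9% to 62.1%, 27.8% to 31.4%, 29.8% to 39.1% and 16.7% to 25.6% in the same order. The reversed values were -0.01 for the TT8 interaction (quantile), -0.02, -0.02 and -0.03 for UGT75C1 at 21 °C (median-ratio, quantile, limma-voom), and -0.02 for PAP1 at 21 °C (quantile). Leaving out 1 library gave -0.09 to 0.12 for UGT75C1 at 21 °C, reversed without replicate 3 of fve-4 at 21 °C. It gave -0.04 to 0.35 for PAP1 at 21 °C, reversed at -0.03 and -0.04 without replicate 2 or 3 of fve-4 at 21 °C. The cause was not tested.

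Over the alternatives, the adjusted p of fve-4 against Col at 27 °C ranged from 0.00981 to 0.334 for PAP1 and from 0.00780 to 0.491 for TT8. That of MYBL2 with warmth in fve-4 ranged from 0.0188 to 0.179, that of UGT79B1 at 21 °C from 0.00140 to 0.153, and that of DFR at 21 °C from 0.0207 to 0.220. The UGT75C1 interaction passed in 5 of 22 alternatives. Of 18 pairs of same-numbered libraries, 2 had a correlation of deviations over 0.1 (-0.14 to 0.19). Pairs with different numbers ranged from -0.25 to 0.18. These values cannot show whether the samples were paired in culture or handling. With the replicate block, 8, 9, 5, 6 and 2 members were called with warmth in fve-4, with warmth in Col, for the interaction, at 27 °C and at 21 °C. Of all tested genes, 38.8%, 61.7%, 32.0%, 37.8% and 23.5% were called with the block in the same order. The filter at 5 TPM left PAP1 and TT8 without a value, and the interaction has no fit with 2 groups. Depth limits PAP1, PAP2, TT8 and warm Col most.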
